A study of Mus musculus with 3 samples.

Results

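The genes described here encode 10 enzymes and proteins that remove reactive oxygen species, namely Gpx3, Gpx1, Gpx2, Gpx4, Cat, Sod1, Sod2, Prdx1, Txn1 and Nqo1. They were chosen by name, and all 10 were listed in both deposited tables, among 16157 genes of the first table and 32285 of the second. RNA had been counted in single islet cells of mice that carried Ngn3-CreERT and R26-CAG-TdTomato, taken 10 days after tamoxifen. The Cre recombinase is driven by Ngn3, another name of Neurog3, and the series asks about adult pancreatic cells that express it. The 3 samples form a single group from 6 mice, replicates 2 and 3 each being a pool of 2 mice. Age, sex and strain are not given. Every mouse carried both alleles and received tamoxifen, so no effect of the alleles or of the drug could be measured. Replicate 1 was deposited alone and is called library 1. Replicates 2 and 3 were deposited together, with no label that tells their cells apart, and are called the joint table. All tests thus rest on n = 2 libraries. The library is a block in the main fits, so their p-values measure how class differences vary between the libraries. That spread is pooled over the classes of a fit and drawn towards a trend over all genes.

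Hydrogen peroxide and superoxide arise in mitochondria, in peroxisomes and during oxidative protein folding. Superoxide dismutases turn superoxide into hydrogen peroxide, Sod1 in the cytosol and Sod2 in the mitochondrial matrix. Catalase splits hydrogen peroxide in peroxisomes, and glutathione peroxidases, peroxiredoxins and the thioredoxin system reduce it with electrons that come from NADPH. Pancreatic beta cells are known for low catalase and low glutathione peroxidase activity relative to liver.

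Cells were kept with at least 500 detected genes, at least 1000 UMIs (unique molecular identifiers, each standing for 1 captured RNA molecule) and at most 20% mitochondrial UMIs. Hormone transcripts alone defined the endocrine classes. Beta cells had at least 3000 UMIs of Ins1 and Ins2 per 10000 UMIs, and alpha, delta and PP cells had at least 200 of Gcg, Sst or Ppy. Cells that passed for more than 1 hormone were set aside from these 4 classes. Library 1 gave 468 beta, 104 alpha, 25 delta and 18 PP cells, and the joint table gave 7018, 926, 230 and 236. The non-endocrine cells numbered 122 and 1411, named from their markers. Their makeup differed between the tables, with 28 endothelial, 44 myeloid and 44 stromal cells in library 1 and 747, 344 and 222 in the joint table. The classes held their own markers. The summed level of 8 alpha markers was 3667 and 3364 per 10000 UMIs other than insulin in alpha cells, against 21.7 and 27.9 in beta cells. The 6 delta markers summed to 1615 and 1589 in delta cells, against 11.8 and 9.24 in beta cells. Some RNA crossed between classes: the 9 beta markers summed to 528 and 1339 in delta cells and to 78.5 and 1077 in non-endocrine cells. The deposited cells held 27474046 UMIs in library 1 and 196833349 in the joint table. Among the barcode sequences, 5 were shared between library 1 and block 1 of the joint table, 1 with block 2 and 0 with block 3, and 4 to 6 were shared between pairs of blocks.

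Insulin transcripts made up 64.8% and 66.4% of all UMIs of beta cells in library 1 and the joint table. Levels are therefore given as UMIs per 10000 UMIs other than Ins1 and Ins2 unless stated, first for library 1 and then for the joint table, and both totals were tested. The bracketed intervals are exact Poisson 95% intervals and cover counting error only. Differences between classes are log2 differences of these levels plus 0.05, from limma with the library as a block, and p-values are Benjamini-Hochberg adjusted over all genes tested. A count of 0 is given with the level that 3 counts would make. Fewer transcribing cells and less RNA per cell cannot be told apart in such sums, and a larger hormone transcript in a class lowers the share left for all other genes.

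Gpx3, which encodes the secreted plasma glutathione peroxidase, a selenoprotein, set the endocrine classes apart. Beta cells had a Gpx3 level of 0.431 (0.384 to 0.482) and 0.351 (0.335 to 0.368). Alpha cells had 9.62 (9.12 to 10.1) and 13.2 (12.9 to 13.4). Delta cells lay between them, with 5.54 (4.71 to 6.47) and 5.85 (5.44 to 6.29). PP cells had 3.50 (2.94 to 4.12) and 5.17 (4.92 to 5.42). The levels of beta cells stayed below those of the other endocrine classes in both tables and in each of the 3 barcode blocks of the joint table. Across those blocks beta cells ranged from 0.311 to 0.403 and alpha cells from 12.99 to 13.6.

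**Figure D1:**
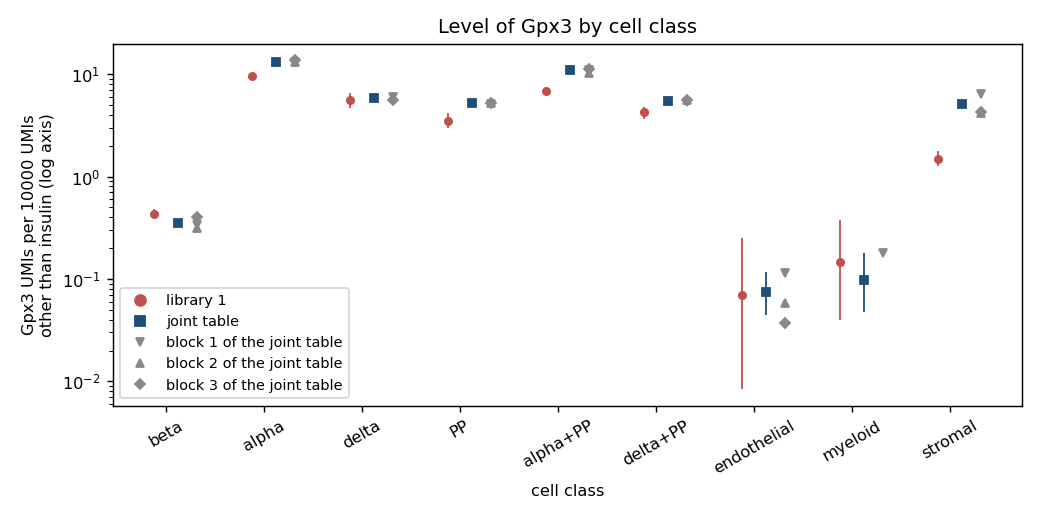
Level of Gpx3 by cell class, in UMIs per 10000 UMIs other than insulin on a log axis. Circles (library 1) and squares (joint table) carry exact Poisson 95% intervals, grey marks are the barcode blocks, and blocks with no UMI are not drawn; alpha cells reached 9.62 and 13.2 while beta cells had 0.431 and 0.351.

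Alpha cells exceeded beta cells by 4.69 on the log2 scale (SE 0.18, limma adjusted p = 5.6e-08), by 4.33 in library 1 and by 5.04 in the joint table. Delta cells exceeded beta cells by 3.71 (SE 0.18, limma adjusted p = 4.7e-07) and PP cells by 3.29 (SE 0.18, limma adjusted p = 5.7e-07). With insulin in the total these differences were 5.90, 4.87 and 4.49, and with all islet hormones out of the total they were 5.16, 3.97 and 4.22. Over all genes tested the median difference was -0.52 for alpha, -0.21 for delta and -0.81 for PP cells, so Gpx3 stood further from the typical gene than from 0. The higher level passed the threshold under all 16 other settings in each of the 3 comparisons.

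Among the other endocrine classes alpha cells had the most Gpx3. Of all genes tested, 22.1% differed between alpha and delta cells (2.58% higher and 19.6% lower in alpha) and 9.85% between alpha and PP cells (8.77% higher and 1.08% lower). Between delta and PP cells 51.6% differed, 50.4% higher and 1.17% lower in delta cells. Alpha cells exceeded delta cells by 0.98 (SE 0.18, limma adjusted p = 0.0031) and PP cells by 1.39 (SE 0.18, limma adjusted p = 9.6e-04), in both tables. Delta and PP cells were not ordered. Delta cells were 0.42 higher (SE 0.18, limma adjusted p = 0.073), but 0.25 lower with all hormones out of the total (limma adjusted p = 0.43). Of the 16 other settings 3 called delta cells higher and 0 called them lower. Cells with both Gcg and Ppy had 6.79 and 10.8, and cells with both Sst and Ppy had 4.22 and 5.48. Cells that passed for both insulin and Gcg had 8.45 in the joint table (88 cells), and those with insulin and Sst had 3.42 (108 cells).

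Single cells showed the same split. At least 1 Gpx3 UMI was found in 95.2% and 95.5% of alpha cells, in 96.0% and 84.8% of delta cells and in 83.3% and 84.7% of PP cells. In beta cells the share was 21.2% (17.5% to 25.1%, exact Clopper-Pearson) and 13.1% (12.3% to 13.9%). Beta cells were sequenced to a median of 39330 and 19956 UMIs, alpha cells to 14305 and 7682.5, so cells were also thinned to 1000 UMIs other than insulin. The share was then 56.7% and 66.7% in alpha cells, 39.9% in delta cells of the joint table (8 of 25 in library 1), 16.7% and 33.9% in PP cells and 4.28% and 2.97% in beta cells. Endothelial cells, assumed but not tested to hold only free Gpx3 RNA, had 0 of 27 cells (up to 12.8%) and 0.271% (0.0328% to 0.974%) at that depth. Their unthinned medians were 8576.5 and 2989 UMIs. In the joint table the share of beta cells lay above that of endothelial cells, and in library 1 the intervals overlapped. These intervals run over single cells, which are not replicates. The source of the Gpx3 RNA in beta cells was not tested.

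**Figure D2:**
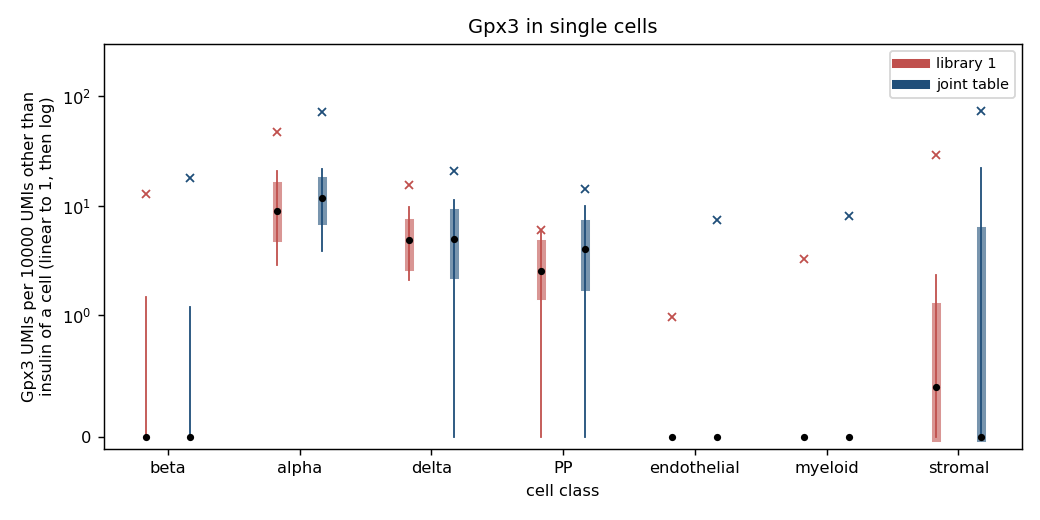
Gpx3 in single cells, in UMIs per 10000 UMIs other than insulin of the cell, on an axis that is linear to 1 and logarithmic above. Thin lines span the 10th to 90th percentile, thick bars the quartiles, dots are medians and crosses the highest cell; the medians were 8.95 and 11.6 in alpha cells and 0 in beta cells.

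Most beta cells had no Gpx3 UMI, and a few had many. No UMI was found in 369 of 468 beta cells of library 1 and in 6097 of 7018 of the joint table. The tenth of beta cells with the most Gpx3 UMIs held 79.3% and 87.8% of them. At 3000 UMIs other than insulin per cell the variance of Gpx3 in beta cells was 1.66 and 1.77 times its mean. The other 9 genes ranged from 0.991 to 1.32 where they were counted. Beta cells with at least 20 UMIs of Gcg, Sst, Ppy and Pyy per 10000 UMIs, here with insulin counted, numbered 25 and 410. Their Gpx3 level, per 10000 UMIs other than insulin, was 1.45 (1.14 to 1.82) and 2.16 (1.99 to 2.34). The remaining 443 and 6608 beta cells had 0.351 (0.307 to 0.399) and 0.251 (0.237 to 0.265). This split was chosen after the values were seen. Over single beta cells Gpx3 varied most with Pyy, Ppy, Sst and Rbp4, a delta cell marker, with Pearson correlations between 0.169 and 0.265 at equal depth over 462 and 6499 cells, which share their libraries and free RNA. If every Gcg, Sst and Ppy UMI in beta cells had come with Gpx3 at the ratio seen in alpha, delta and PP cells, this would make 14.4% and 24.7% of their Gpx3 UMIs. The same ratios would make 19.4% and 70.2% of the 2 and 19 Gpx3 UMIs of endothelial cells. How much of the free RNA these ratios capture was not tested. Whether the rest came from beta cells or from RNA of other cells was not tested.

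Outside the endocrine lineage Gpx3 was found in stromal cells. Endothelial cells had 0.0694 and 0.0745 and myeloid cells 0.146 and 0.0981. Stromal cells had 1.49 (1.25 to 1.76) and 5.11 (4.56 to 5.71), so the tables differed beyond counting error. A single cell held 33.8% of the stromal Gpx3 UMIs of library 1 and 6.43% of those of the joint table. When stromal cells were split by the higher of 2 marker sums, a split chosen after the values were seen, those with more fibroblast markers had 1.55 and 8.84. Those with more pericyte and smooth muscle markers had 0.650 and 0.190. The non-endocrine cells as a whole had 0.959 and 0.761, above the levels of beta cells in both tables. They lay 1.88 below the unweighted mean of the 4 endocrine classes on the log2 scale (SE 0.18, limma adjusted p = 1.2e-05), by 1.62 in library 1 and by 2.14 in the joint table.

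The genes with the pattern most like that of Gpx3 were taken over the 10 columns of 5 classes and 2 libraries, among 1114 other genes with a mean level of at least 1. Etv1, an ETS family transcription factor, was the closest, with a Pearson correlation of 0.917. Its level was 3.84 and 5.09 in alpha cells, 3.67 and 4.10 in delta cells, 2.31 and 2.86 in PP cells and 0.238 and 0.453 in beta cells. Itpr1, an inositol trisphosphate receptor of the endoplasmic reticulum, followed with 0.870, and Calb1, a calcium-binding protein, with 0.828. Dbpht2 had 0.810 and Gria2, an AMPA receptor subunit, had 0.799. Columns of the same class or library are not independent, and these values are descriptions. Of the other 9 genes, among those at this mean level, Gpx4 ran most against Gpx3, with a correlation of -0.687. Gpx2, below that level, had -0.031. Nqo1, also below it, had -0.883 and is not ranked. Its few UMIs in alpha, delta and PP cells leave those values set largely by the pseudocount.

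The other glutathione peroxidases did not share the Gpx3 pattern. Gpx1, the cytosolic and mitochondrial member of the family, was highest in delta cells among the endocrine classes. Its level was 0.998 and 1.05 in beta cells, 0.573 and 0.618 in alpha cells, 1.66 and 1.65 in delta cells and 0.620 and 0.477 in PP cells. The delta values lay above all other endocrine values in both tables. Delta cells exceeded beta cells by 0.67 (SE 0.17, limma adjusted p = 0.015), and this held under all 16 other settings. The difference of alpha from delta cells was -1.40 (limma adjusted p = 1.8e-04), and delta cells exceeded PP cells by 1.52 (limma adjusted p = 1.2e-04).

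Gpx2, the gastrointestinal glutathione peroxidase, had its highest endocrine values in beta cells in both tables with insulin out of the total. It had 0.353 and 0.470 there, 0.0909 and 0.121 in alpha cells, 0.277 and 0.276 in delta cells and 0.149 and 0.288 in PP cells. Alpha cells lay 1.56 below beta cells (SE 0.25, limma adjusted p = 0.00063), a call lost with insulin in the total (difference -0.33, limma adjusted p = 0.27). The delta difference of -0.49 did not pass the threshold (limma adjusted p = 0.19). With insulin in the total it turned to 0.70 (limma adjusted p = 0.024). Gpx2 overlaps an exon of Fntb on the opposite strand, and whether reads were counted by strand is not given in the sources used here. Fntb had 0.151 and 0.155 in beta cells and 0.0909 and 0.0859 in alpha cells. Its part in the Gpx2 values was not tested.

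Gpx4, which reduces lipid hydroperoxides in membranes, had 3.15 and 2.72 in beta cells. The other classes had less, with 1.64 and 1.63 in alpha cells, 1.70 and 2.29 in delta cells and 1.04 and 1.12 in PP cells. PP cells lay 1.40 below beta cells (SE 0.16, limma adjusted p = 5.6e-05) and 0.57 below once each column was centred on its median gene (limma adjusted p = 0.024). With all hormones out of the total the PP difference was -0.51 and was not called (limma adjusted p = 0.053). With insulin in the total the direction turned, to 0.63 in alpha cells (limma adjusted p = 0.0062), 0.84 in delta cells (limma adjusted p = 0.00061) and 0.04 in PP cells (limma adjusted p = 0.85). The delta difference of -0.56 (limma adjusted p = 0.028) was -0.88 in library 1 and -0.25 in the joint table. It was called lower under 7 of the 16 other settings, and without the replicate block its limma adjusted p was 0.065.

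Catalase transcripts were scarce in every endocrine class and were detected mainly in beta and delta cells. Cat had 0.0269 and 0.0328 in beta cells and 0.104 and 0.103 in delta cells, the latter from 3 and 13 UMIs. In alpha cells there were 0 UMIs in library 1, which allows a level of up to 0.0210, and 3 UMIs in the joint table. In PP cells there were 0, which allows up to 0.0744, and 1. Cat passed the filter on low values only through delta cells, the endocrine class where it was highest. Its fitted differences between endocrine classes are therefore not used as calls. The delta minus beta difference was 0.94, and in the blocks of the joint table it was 0.027, 1.49 and 1.23.

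Sod1, the copper and zinc enzyme, had 1.44 and 1.93 in beta cells, 1.55 and 1.73 in alpha cells, 1.32 and 1.85 in delta cells and 0.769 and 0.709 in PP cells. PP cells were the lowest in both tables. Alpha cells exceeded PP cells by 1.10 (limma adjusted p = 0.0027), and by 0.67 with all hormones out of the total (limma adjusted p = 0.024). Sod1 overlaps an exon of Scaf4 on the opposite strand, which had 0.218 and 0.214 in beta cells and 0.0496 and 0.0960 in PP cells. Its part in the Sod1 values was not tested. Sod2, the manganese enzyme, had 1.42 and 1.34 in beta cells, 0.769 and 0.823 in alpha cells, 1.73 and 1.14 in delta cells and 0.868 and 0.554 in PP cells. The delta values of the tables lay on either side of the beta values.

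Prdx1, a cytosolic peroxiredoxin, was lowest in alpha cells. It had 3.43 and 3.49 in beta cells, 1.91 and 1.90 in alpha cells, 3.32 and 3.19 in delta cells and 3.30 and 2.82 in PP cells. Alpha cells lay 0.84 below beta cells (SE 0.13, limma adjusted p = 0.00041) and 0.39 below with all hormones out of the total (limma adjusted p = 0.018), but 0.61 above with insulin in it (limma adjusted p = 0.0018). After centring the difference was -0.29 and was not called (limma adjusted p = 0.071). Prdx1 was called lower in alpha cells under 11 of the 16 other settings. Txn1, cytosolic thioredoxin, had 1.54 and 1.34 in beta cells, 0.727 and 0.917 in alpha cells, 1.52 and 1.68 in delta cells and 0.794 and 0.811 in PP cells. Alpha and PP cells had less than beta and delta cells in both tables on this scale.

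Nqo1, a quinone reductase and a classical target of the transcription factor NRF2, was detected in beta cells and close to absent from counts of the other endocrine classes. It had 0.124 and 0.144 in beta cells, from 88 and 740 UMIs. Alpha cells had 0.00699 and 0.0127, from 1 and 9 UMIs. Delta cells had 0 and 1 UMI and PP cells 0 and 2, where 0 allows a level of up to 0.104 and 0.0744 in library 1. Nqo1 passed the filter only through beta cells, the endocrine class where it was highest, so its fitted differences are not used as calls. Their size was set by the pseudocount and the method, and that of delta cells ran from -4.25 to -0.33 over the settings. With insulin in the total its level in beta cells was 0.0438 and 0.0485, against 0.00692 and 0.0120 in alpha cells, and the filter then removed it.

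**Figure D3:**
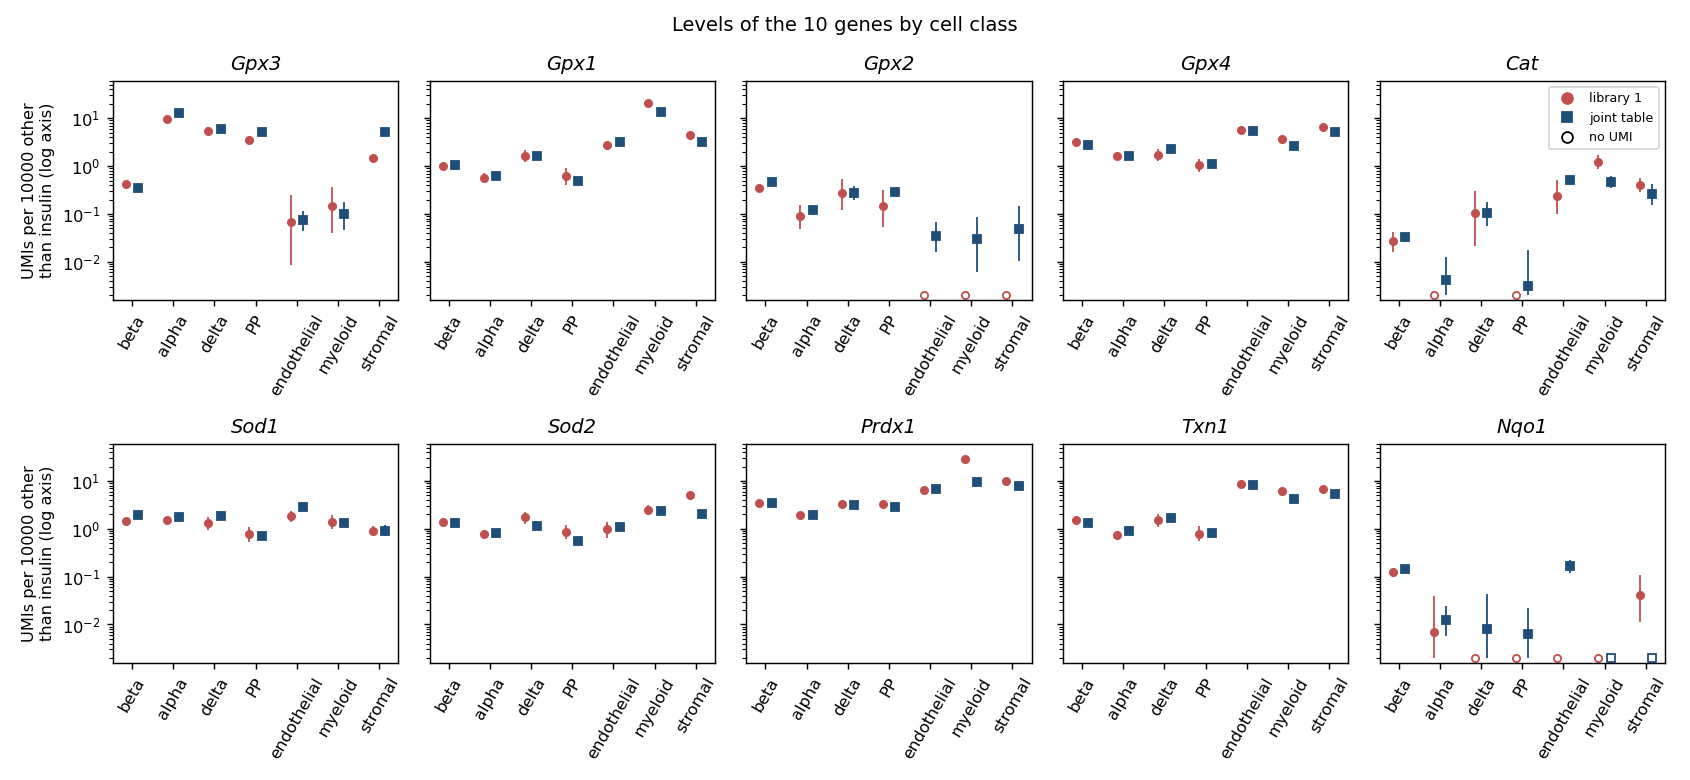
Levels of the 10 genes by cell class in UMIs per 10000 UMIs other than insulin, on log axes with exact Poisson 95% intervals. Open symbols at the foot mark classes with no UMI; Nqo1 stood at 0.124 and 0.144 in beta cells and at or under 0.0127 in alpha, delta and PP cells.

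Gene positions are on GRCm38 (mm10), the build named for the deposited tables, from GENCODE. Gpx3 lies on chromosome 11 from 54902453 to 54910377 on the plus strand, Gpx2 on chromosome 12 from 76792333 to 76795554 on the minus strand and Nqo1 on chromosome 8 from 107388225 to 107403206 on the minus strand. Promoter windows of these 3 genes were chosen after the values were seen, for their levels in beta cells. Among the endocrine classes, with insulin out of the total, Gpx2 and Nqo1 were highest in beta cells and Gpx3 lowest there. The Gpx3 stretch starts at 54902604, after the GENCODE start at 54902453, so it lies inside the gene as GENCODE annotates it. The sequences are RefSeq's for GRCm38.p6, 5′ to 3′ on the strand of the gene, from up to 250 bases before the RefSeq start, less any base that an annotated exon of the gene covers. Capitals mark matches on either strand to the antioxidant response element core TGACNNNGC, the TATA box TATAAA, the GC box GGGCGG or the CCAAT box CCAAT.
Gpx3 promoter, chr11:54902604-54902771, plus strand: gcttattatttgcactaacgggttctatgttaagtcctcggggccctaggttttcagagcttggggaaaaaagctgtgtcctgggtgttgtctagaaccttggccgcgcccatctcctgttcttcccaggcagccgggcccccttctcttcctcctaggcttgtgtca
Gpx2 promoter, chr12:76795555-76795804, minus strand: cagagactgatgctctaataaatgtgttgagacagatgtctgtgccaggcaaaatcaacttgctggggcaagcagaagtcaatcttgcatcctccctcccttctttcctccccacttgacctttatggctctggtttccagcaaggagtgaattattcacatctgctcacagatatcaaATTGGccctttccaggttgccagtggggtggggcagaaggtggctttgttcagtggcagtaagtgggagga
Nqo1 promoter, chr8:107403207-107403455, minus strand: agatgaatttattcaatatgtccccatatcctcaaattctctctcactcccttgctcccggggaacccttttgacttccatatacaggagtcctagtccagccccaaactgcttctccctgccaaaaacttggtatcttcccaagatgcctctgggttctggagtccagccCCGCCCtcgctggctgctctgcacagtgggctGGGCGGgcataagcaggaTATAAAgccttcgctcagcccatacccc
The Nqo1 window holds 3 matches, a pair of GC boxes and a TATA box, and the Gpx2 window 1 match, a CCAAT box. The Gpx3 stretch, inside the GENCODE gene, holds 0. Its whole 250 bases hold a GC box and a CCAAT box in the bases that an exon covers. Among 27025 promoters of 250 bases, 10.15% hold the antioxidant response element core, 12.97% the TATA box, 32.94% the GC box and 34.46% the CCAAT box. Of the 10 genes, Sod1 and Prdx1 hold the antioxidant response element core in the 250 bases, and each of them also holds a TATA box. Matches are descriptions, and a window without one says nothing of the factor.

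Counts of the genes followed the total that was used. Cat and Nqo1 are left out of these counts, since each passed the filter through 1 class only. Of the other 8 genes, 1 (Gpx3) was higher and 6 lower in alpha than in beta cells, where 42.9% of the 9235 genes tested were called, 4.23% higher and 38.7% lower. In delta cells 2 were higher (Gpx3 and Gpx1) and 1 lower (Gpx4), where 23.5% of all genes were called, 6.8% higher and 16.7% lower. In PP cells 1 was higher and 6 lower, where 68.7% were called, 2.18% higher and 66.5% lower. Lower calls were thus common among all genes in these comparisons. With insulin in the total 7, 8 and 4 of the 8 genes were higher in alpha, delta and PP cells and 0 lower, where 53%, 77% and 25.6% of all genes were higher and 3.25%, 1.6% and 3.85% lower. After centring, 9.62%, 10% and 10% of all genes were higher and 11.4%, 12.5% and 11% lower, and of the 8 genes 2, 2 and 2 were higher and 1, 0 and 1 lower. With all hormones out of the total, the lower genes in alpha cells were Gpx2 and Prdx1, with 0 lower in delta and PP cells, where 13.3%, 8.45% and 10.9% of all genes were lower and 6.49%, 9.41% and 7.83% higher. The higher genes were Gpx3 in all 3 classes, Gpx1 in delta cells and Prdx1 in PP cells.

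**Figure D4:**
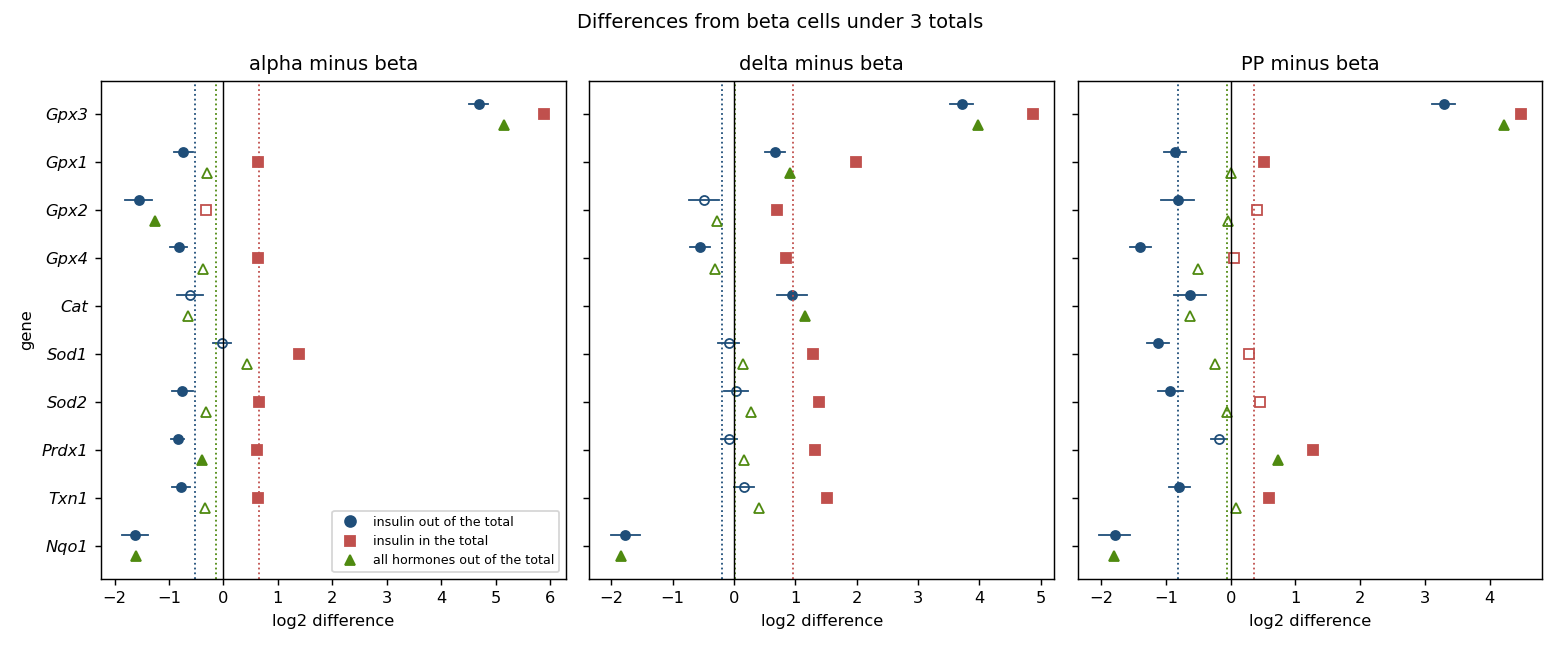
Log2 differences of the 10 genes from beta cells under 3 totals, with filled symbols where limma's adjusted p was under 0.05, SE bars for the total without insulin, and dotted lines at the median over all genes tested. Gpx3 lay between 3.29 and 5.90 over the panels and totals, and Gpx1 in alpha cells moved from -0.74 without insulin to 0.64 with it. Cat and Nqo1 each passed the filter through 1 class only.

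Non-endocrine islet cells carried more of most of the 10 genes than endocrine cells did. Against the mean of the 4 endocrine classes 6 genes were higher and 2 lower, where 57.6% of the 10679 genes tested were called, 37.3% higher and 20.3% lower, and the median gene differed by 0.23. These 8 calls were also made with insulin in the total, with all hormones out of it and after centring. With insulin in the total, however, Cat passed the filter only through non-endocrine cells, so that call is not used. Sod1 was higher as well with that total, by 0.57 (limma adjusted p = 0.010). Of all genes 51.3% were higher and 14.4% lower with insulin in the total. The shares were 23.5% and 34.5% with all hormones out of it, and 26.2% and 33.5% after centring. Cat was 2.84 higher (SE 0.18, limma adjusted p = 8.8e-07), a size that ran from 0.90 to 5.02 over the settings because some endocrine columns were at 0, and Gpx1 was 2.77 higher (SE 0.13, limma adjusted p = 2.3e-07). Txn1 was 2.59, Prdx1 1.77, Gpx4 1.54 and Sod2 1.19 higher. The Sod2 difference was 1.72 in library 1 and 0.66 in the joint table. Gpx2 was 2.07 lower (SE 0.22, limma adjusted p = 2.7e-05), with 0 UMIs in library 1, which allows a level of up to 0.0194, and 0.0376 in the joint table.

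The genes were spread unevenly over the non-endocrine classes. Gpx1 was highest in myeloid cells, with 20.4 and 13.7, against 2.74 and 3.12 in endothelial cells and 4.40 and 3.19 in stromal cells. Prdx1 was also highest in myeloid cells of both tables, but its 29.4 in library 1 was far from the 9.32 of the joint table. Txn1 was highest in endothelial cells, with 8.77 and 8.38. Cat had 0.243 and 0.502 in endothelial cells, 1.24 and 0.471 in myeloid cells and 0.409 and 0.263 in stromal cells, so its order differed between the tables. Sod2 reached 5.18 in stromal cells of library 1 and 2.04 in those of the joint table. Nqo1 was detected in endothelial cells of the joint table, at 0.165 from 42 UMIs, and had 0 UMIs in the 28 of library 1, which allows up to 0.104. Sod1 differed from the endocrine mean by 0.23 (limma adjusted p = 0.27) and Nqo1 by 0.49 (limma adjusted p = 0.057).

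Delta cells with and without a Neurog3 UMI were compared because the series asks about such cells. Delta cells with a Neurog3 UMI numbered 9 in library 1 and 54 in the joint table, against 16 and 176 without. Their median depth was 13448 and 6196.5 UMIs, against 10188 and 5310.5 without, and deeper cells more readily show a UMI. Gpx3 had 4.90 and 5.68 in the former and 5.99 and 5.91 in the latter, a difference of -0.17 (SE 0.20, limma adjusted p = 0.98). None of the 9 genes tested passed, and neither did any of the 8654 genes tested by limma, of which 0% were called and 345 had an unadjusted p under 0.05. The edgeR test called 4 genes and DESeq2 0. The fit has 1 residual degree of freedom.

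Other genes of the same systems were taken from lists chosen with earlier results known. Their counts are read against all genes tested, of which 38.7%, 16.7% and 66.5% were lower in alpha, delta and PP cells than in beta cells and 4.23%, 6.8% and 2.18% higher. After centring 11.4%, 12.5% and 11% of all genes were lower and 9.62%, 10% and 10% higher. With insulin in the total 3.25%, 1.6% and 3.85% were lower and 53%, 77% and 25.6% higher. In the lists 1 gene was higher in all 3 classes, Prdx4, the peroxiredoxin of the endoplasmic reticulum. It had 0.386 and 0.304 in beta cells, 0.755 and 0.703 in alpha cells, 1.18 and 0.971 in delta cells and 0.943 and 0.830 in PP cells. Its differences from beta cells were 0.99 (SE 0.16, adjusted p = 7.6e-04 by limma), 1.51 (SE 0.16, adjusted p = 7.3e-05 by limma) and 1.25 (SE 0.16, adjusted p = 1.2e-04 by limma), and all 3 were also called after centring. Of 5 peroxiredoxins 2, 0 and 4 were lower, and after centring 1, 0 and 1. Prdx6 was among the lower ones in alpha and PP cells.

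Ero1lb, the oxidase of endoplasmic reticulum protein folding that passes electrons to oxygen and so makes hydrogen peroxide, was higher in beta cells than in each other endocrine class. It had 17.1 and 16.99 there, 0.706 and 1.002 in alpha cells, 1.11 and 1.41 in delta cells and 0.645 and 0.582 in PP cells. Its difference from beta cells was -4.26 in alpha, -3.72 in delta and -4.69 in PP cells (limma adjusted p from 2.5e-08 to 2.7e-07). Maob, a mitochondrial monoamine oxidase that releases hydrogen peroxide, had differences of -1.84, -2.82 and -3.54 in the same order. Of the 15 listed producers of superoxide and peroxide 5 were tested, and 3, 2 and 4 were lower and 0 higher. After centring 2, 2 and 2 were lower.

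Glrx, a glutaredoxin, differed from beta cells by -1.99, -3.01 and -2.31 in alpha, delta and PP cells, and Glrx5, its mitochondrial relative, by -1.65, -1.02 and -1.81. Of 9 tested genes of the thioredoxin and glutaredoxin list 5, 2 and 7 were lower and 0 higher, and after centring 2, 2 and 2 were lower and 0, 1 and 1 higher. Ftl1, the ferritin light chain and an NRF2 target, had 29.2 and 22.2 in beta cells and from 5.82 to 8.79 in the other endocrine classes. Of 17 tested NRF2 targets G6pdx passed the filter only through beta cells and Osgin1 only through delta cells. Of the remaining 15 genes 10, 4 and 11 were lower and 0 higher. The 17 had medians of -0.80, -0.29 and -0.86 against -0.52, -0.21 and -0.81 for all genes. In the whole list 2, 4 and 2 were lower after centring and 0, 1 and 1 higher. With insulin in the total 6, 12 and 6 of the list were higher and 2, 0 and 0 lower, where 53%, 77% and 25.6% of all genes were higher. Of 7 regulators of NRF2 5, 2 and 7 were lower and 0 higher, and after centring 2, 2 and 1 were lower.

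Dio1, a deiodinase and selenoprotein, had 1.25 and 1.12 in beta cells and 0.119 and 0.114 in alpha cells. Of 15 other selenoproteins 8, 6 and 11 were lower and 0, 1 and 0 higher. With insulin in the total 5, 12 and 4 were higher and 1, 0 and 0 lower, where 53%, 77% and 25.6% of all genes were higher. Of 6 genes of selenoprotein synthesis 3, 2 and 2 were lower and 0 higher, and after centring 1, 2 and 1 were lower. Idh2, mitochondrial isocitrate dehydrogenase, differed from beta cells by -1.45, -1.13 and -1.53. Of 8 tested genes of NADPH supply G6pdx passed the filter only through beta cells. Of the remaining 7 genes 5, 4 and 6 were lower and 0 higher. After centring, with G6pdx counted, 1, 3 and 2 of the 8 were lower. Of 8 tested genes of glutathione synthesis and recycling Chac1, which degrades glutathione, passed the filter only through beta cells. It had 0.187 and 0.291 there, and 0 UMIs in delta and PP cells of library 1. Of the remaining 7 genes 3, 1 and 4 were lower and 0 higher. After centring, with Chac1 counted, 1, 2 and 2 of the 8 were lower. Ccs, the copper chaperone of Sod1, was lower in alpha and PP cells, at -0.74 and -0.97, and not called after centring.

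In non-endocrine cells the list counts are read against 37.3% of all genes higher and 20.3% lower, or 26.2% and 33.5% after centring. Nfe2l2, which encodes NRF2, had 2.00 and 2.12 in non-endocrine cells and from 0.0744 to 0.434 in the endocrine classes, a difference of 2.81 (SE 0.21, limma adjusted p = 2.4e-06). Of 7 regulators of NRF2 5 were higher and 0 lower, and after centring 3 and 0. Of 20 tested NRF2 targets 3 passed the filter only through non-endocrine cells, Ephx1, Hmox1 and Slc7a11. Of the remaining 17 genes 10 were higher and 1 lower. After centring, with those 3 counted, 11 of the 20 were higher and 3 lower. Hmox1, heme oxygenase 1, had 0.745 and 0.270 in non-endocrine cells and at most 0.0665 in endocrine classes. Fth1, the ferritin heavy chain, was 3.61 higher, with levels of 246.9 and 64.7 in non-endocrine cells. Gclm, a subunit of the rate-limiting enzyme of glutathione synthesis, was lower, at -0.94 (SE 0.14, adjusted p = 2.7e-04 by limma).

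Some genes reached the filter in non-endocrine cells alone and are given as levels. Gpx8, a peroxidase of the endoplasmic reticulum, had 0.998 and 0.607 there and at most 0.0169 in endocrine classes. Sod3, the extracellular dismutase, had 0.674 and 0.285 there and at most 0.0031 in endocrine classes. Cybb, a membrane subunit of the phagocyte NADPH oxidase, had 3.49 and 2.85 there, where 44 and 344 cells were myeloid, and at most 0.0124 in endocrine classes. Its partner Cyba had 3.76 and 4.36 there and reached the filter level in 1 endocrine column, delta cells of library 1. Of the 11 tested producers 6 were of this kind, and of the remaining 5, 1 was higher and 2 lower. Of 8 tested genes of NADPH supply 7 were higher and 0 lower, and after centring 5 and 0. Of 5 peroxiredoxins 4 were higher and 0 lower, and after centring 1 and 1. Of 9 thioredoxin and glutaredoxin genes 3 were higher and 0 lower, and after centring 1 and 3. Of 9 genes of glutathione synthesis and recycling Slc7a11 reached the filter in non-endocrine cells alone. Of the remaining 8 genes 2 were higher and 1 lower, and after centring, with Slc7a11 counted, 1 and 2 of the 9. Of 15 other selenoproteins 6 were higher and 2 lower, and after centring 4 and 8, and of 6 genes of selenoprotein synthesis 1 and 1, and after centring 0 and 2.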

How the data were processed

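RNA of single islet cells was captured with 10x Genomics 3' chemistry. Per the submitters' processing notes, reads were trimmed with cutadapt 2.5, checked with FastQC 0.11.8 and aligned to mm10 with Cell Ranger 3.2.0 (library 1) or 5.0.0 (joint table), and Seurat was used (4.0.0 for the joint table). The deposited table of library 1 holds raw UMI counts per gene and cell. The deposited joint table holds natural log values of 1 plus UMIs per 10000, from which whole UMIs were recovered for 100% of 28955174 nonzero values within 0.001. The joint table listed 3008 columns again under another ending, and these copies were dropped.

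The filters left 859 cells of library 1 and 5204, 2607 and 3638 of the 3 barcode blocks. Of these the 6, 217, 54 and 106 with the highest Scrublet score (scanpy 1.11.5) were removed as doublets, at a rate of 0.8% per 1000 cells. UMIs were summed per class and library for classes of at least 10 cells. The delta cells split by Neurog3 had no such minimum, and their smallest column held 9 cells. The main test was limma 3.58.1 in R 4.3.3 on log2 levels plus a pseudocount of 0.05, with the library as a block, over genes at 0.1 or more per 10000 in at least 2 columns. A gene was called at a Benjamini-Hochberg adjusted p under 0.05. Alternatives used edgeR 4.0.16 and DESeq2 1.42.0 on the recovered counts, other totals, pseudocounts, filters, cell thresholds and barcode blocks. The fit was tested on simulated data. Both libraries enter every class, so the library pairs the columns. All 10 genes are named, with at most 3 called genes of largest difference per list and comparison and the 5 genes most like Gpx3. The genes and lists were chosen with earlier results of these data known. Comparisons among alpha, delta and PP cells, the stromal and beta cell splits, the hormone ratio, the correlations over cells and the promoters shown were chosen after values were seen. Counting intervals cover counting error only.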

Additional observations from a re-analysis of the deposited data

How the results depend on the processing

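The higher Gpx3 of alpha, delta and PP cells over beta cells and of alpha over delta and PP cells, and its lower level in non-endocrine cells than in the unweighted mean of the 4 endocrine classes (beta cells alone lay below them), kept direction and call under all 16 other settings. Most other endocrine differences depended on the total. The count of genes called between alpha and beta cells went from 3963 to 1959 with all hormones out, 1944 after centring and 2438 by DESeq2. Between delta and beta cells it went from 2173 to 6653 with insulin in the total and 3775 with barcode blocks. Between PP and beta cells it went from 6340 to 2496 with insulin in, 1852 with all hormones out, 1945 after centring, 3029 and 3039 by edgeR and 1836 by DESeq2. For Neurog3 in delta cells it went from 0 to 12 with double hormone thresholds, 4 by edgeR with either scaling, 3 after centring, without a filter or with doublets kept, 2 with insulin in, all hormones out, pseudocount 0.5, a mean over cells or Ppy allowed, and 1 with blocks. Without the replicate block the counts were 3159, 1524, 5708, 5728 and 0, in the order alpha, delta, PP, non-endocrine and Neurog3, and the 1 call on the 10 genes that changed was Gpx4 in delta cells.

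With insulin in the total the direction turned in alpha cells for Gpx1 (0.64), Gpx4 (0.63), Sod1 (1.39), Sod2 (0.65), Prdx1 (0.61) and Txn1 (0.63). It turned in delta cells for Gpx2 (0.70), Gpx4 (0.84), Sod1 (1.28) and Prdx1 (1.33), and in PP cells for Gpx1 (0.51), Gpx2 (0.40), Gpx4 (0.045), Sod1 (0.29), Sod2 (0.46), Prdx1 (1.27) and Txn1 (0.60). Sod1 in alpha cells also turned with all hormones out (0.43), after centring (0.53), by DESeq2 (0.60), by edgeR (0.58 with either scaling) and as a mean over cells (0.11). In delta cells Sod1 turned with all hormones out (0.15), after centring (0.073), by DESeq2 (0.16) and by edgeR (0.17 and 0.15), and Prdx1 likewise (0.16, 0.077, 0.12, 0.12 and 0.10) and with double thresholds (0.050). Sod2 there turned with at most 10% mitochondrial UMIs (-0.036), blocks (-0.085), double thresholds (-0.077) and Ppy allowed (-0.13). In PP cells Prdx1 turned with all hormones out (0.73), after centring (0.65), by DESeq2 (0.80) and by edgeR (0.80 and 0.78). Txn1 did so in the same order at 0.082, 0.030, 0.18, 0.21 and 0.19. Gpx1 turned with all hormones out (0.0061), by DESeq2 (0.017) and by edgeR with DESeq2 size factors (0.0080), Gpx2 after centring (0.0076), by DESeq2 (0.23) and by edgeR (0.29 and 0.28), and Cat after centring (0.20). Sod1 in non-endocrine cells turned with all hormones out (-0.30) and after centring (-0.15). Gpx3 between delta and PP cells turned with all hormones out (-0.25), after centring (-0.25), by DESeq2 (-0.39) and by edgeR (-0.46 with either scaling).

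None of the 9 genes tested for Neurog3 was called under any setting run. Prdx1 turned with insulin in (9.8e-05), all hormones out (0.014), at most 10% mitochondrial UMIs (0.018), blocks (0.11), centring (0.055), DESeq2 (0.0058) and edgeR (0.041 and 0.020). Gpx1 turned with insulin in (0.00033), all hormones out (0.014), centring (0.056), double thresholds (0.030), a mean over cells (0.14) and Ppy allowed (0.048). Cat turned with blocks (0.12), centring (0.0092), double thresholds (0.098), edgeR (0.051 and 0.031) and Ppy allowed (0.58). Gpx2 turned as a mean over cells (-0.068) and with Ppy allowed (-0.22), and Gpx3 with Ppy allowed (0.015). The cause was not tested. Cat and Nqo1 rest on few UMIs outside beta and non-endocrine cells, which limits what their absence from a class shows. With either library alone Gpx3 differed from beta cells by 4.33 to 5.04 in alpha, 3.54 to 3.88 in delta and 2.88 to 3.70 in PP cells.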
